A study of Mus musculus with 30 samples.

Results

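Interleukin-6 (IL-6) family cytokines, interleukin-10 (Il10) and their signalling genes were followed through 30 YUMM1.7 mouse melanoma tumours. The 9 genes were the ligands Il6, Il11, Lif and Il10, the receptor chains Il6st, Osmr and Lifr, the transcription factor Stat3 and the feedback inhibitor Socs3. They were matched by gene ID among the 54532 genes of the deposited count files, and all 9 were found. The members were chosen by pathway, with measured expression values of these tumours already known, and no contrast and no threshold was named for the choice. The levels below are therefore a description, and the tests, each adjusted over all tested genes of the data set, are no independent evidence for the choice of genes. A gene was tested where its counts passed a low-count filter, which 7 of the 9 members and 13286 genes in all did. Il6, with 41 counts over the 30 tumours, and Lif, with 67, did not pass it.

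YUMM1.7 is a mouse melanoma line with mutant Braf. Its barcoded clones had been isolated with CaTCH and injected under the skin of mice, and each of the 5 clones was a single clonal line of cells. The clones were 14559R and 14559TN, 2646R and 2646TN, and 13TN, whose sample titles carry the word Depleted. The labels do not spell out R and TN, so these letters are used as names. Tumours of each clone were either given RAFi/MEKi, that is inhibitors of RAF and of MEK whose compounds and doses the labels do not give, or left untreated, with 3 tumours in each of the 10 groups. The labels give the strain C57BL/6 for every group and no age. Live GFP-positive cells were sorted after collagenase digestion and CD45 staining, and 3′ ends of messenger RNA were sequenced with the QuantSeq kit. All p-values measure the spread between samples of the same clone and treatment, not the spread between clones. The labels do not name a separate animal for each tumour, so that spread may be partly technical.

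Cytokines of the IL-6 family signal through the shared receptor chain gp130, encoded by Il6st. IL-6 and IL-11 reach gp130 through their own receptors, Il6ra and Il11ra1, while LIF and oncostatin M pair gp130 with Lifr or Osmr. JAK kinases bound to these chains phosphorylate STAT3, which moves to the nucleus and induces Socs3, an inhibitor that acts back on the receptor complex. IL-10 is not a member of the family and uses another receptor, but it too signals through STAT3. In tumours, secreted ligands of this group can act on cancer cells, stromal cells and immune cells.

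Promoter windows of the members were searched for the palindromes TTCNNNGAA, the core bound by STAT factors, and TGANTCA, the core bound by AP-1 factors, which are known to act downstream of MEK and ERK. Both motifs are their own reverse complement, so a match lies on both strands. RefSeq windows of 250 bases before an annotated start (build GRCm38.p6) were held for 8 of the 9 members, in 10 windows. The STAT core stood in 1 of these 10 windows, that of Socs3, against 7.02% of 32851 windows of all genes. The AP-1 core stood in 3 of the 10, those of Il6, Lif and 1 of the 2 windows of Il11, against 6.75% of all windows. A match is a description and does not show that a factor was bound. Both windows were picked for display after the values were seen. Shown with the match in capitals are the Il11 window, since Il11 is the member called lower with the drug in 3 clones, and the part of the Socs3 window that lies before an annotated exon of another Socs3 transcript. The Il11 window is chr7:4778142-4778391 on the minus strand, in an intron of the longer Il11 transcript, and its match lies 98 to 92 bases before the start. The Socs3 stretch is chr11:117969452-117969616 on the minus strand, 165 bases long, and its match lies 154 to 146 bases before the start.
Il11: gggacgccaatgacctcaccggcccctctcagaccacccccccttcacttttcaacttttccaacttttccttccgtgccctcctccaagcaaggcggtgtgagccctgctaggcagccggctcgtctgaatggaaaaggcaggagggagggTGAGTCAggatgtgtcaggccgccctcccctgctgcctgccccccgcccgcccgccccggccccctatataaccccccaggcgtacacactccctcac
Socs3: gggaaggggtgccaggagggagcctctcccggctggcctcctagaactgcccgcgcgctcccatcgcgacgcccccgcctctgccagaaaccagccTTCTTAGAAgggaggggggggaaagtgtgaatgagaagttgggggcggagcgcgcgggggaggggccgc

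The libraries held 3022801 to 5278453 counts, with a median of 4042893, and levels are given as CPM, the count scaled to a library of common size with TMM factors. Sorted cells were checked against marker genes. The melanocyte genes Tyr, Dct and Tyrp1 were at 0 in all 30 libraries, while Mitf ran from 12.0 to 81.3 CPM, Pax3 from 101.5 to 326 CPM, and Sox10 was at 0 in 10 libraries. The summed level of 14 macrophage markers was 23.8 to 57.4 CPM in the 6 tumours of 14559R and 29.5 to 356 CPM in the other 24. Of these markers, Ptprc, which encodes CD45, was at 0 in 5 libraries and reached 6.80 CPM. The summed level of 8 fibroblast markers was 6619 to 13690 CPM in 14559R tumours and 1453 to 7719 CPM in the others. That of 14 genes induced by tissue dissociation was 1765 to 2704 CPM in 14559R tumours and 628 to 2873 CPM in the others. These 14 include the AP-1 genes Fos, Fosb, Jun and Junb, so the list can also answer to MEK and ERK and is no measure of dissociation alone.

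Il11, on chromosome 7 (GRCm38, 4772373 to 4782857, minus strand), encodes a cytokine of fibrosis, bone and tumour stroma. It was detected in all 30 tumours, fell with RAFi/MEKi in 2646R, 14559TN and 13TN, and was near the same level with and without the drug in 14559R. In 14559R it measured 73.7, 195 and 287 CPM in treated tumours, against 292, 96.6 and 109.5 CPM in untreated ones, and the 2 groups overlapped. In 14559TN it measured 2.56, 5.22 and 4.00 CPM treated, against 42.1, 40.0 and 41.4 CPM untreated. Every treated 14559TN tumour lay below every untreated one, and the untreated tumours of this clone differed little among themselves. In 2646R the values were 11.3, 12.0 and 9.36 CPM treated, against 62.1, 76.9 and 81.1 CPM untreated. In 2646TN they were 5.08, 6.17 and 5.81 CPM treated, against 12.1, 14.7 and 16.4 CPM untreated. Neither 2646R nor 2646TN showed an overlap between treated and untreated tumours. In 13TN Il11 measured 4.51, 3.86 and 10.1 CPM treated, against 94.5, 74.2 and 201 CPM untreated, again without overlap.

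**Figure D1:**
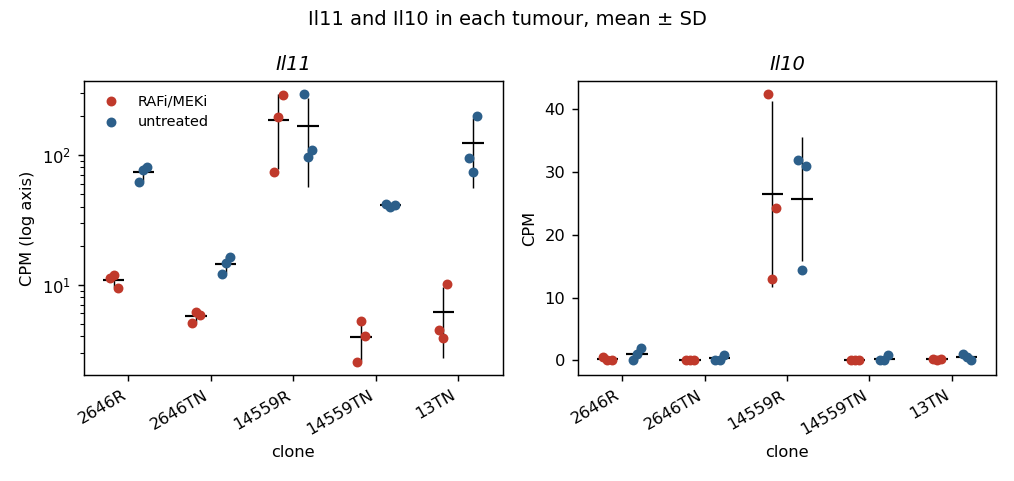
Level of Il11 (CPM, log axis) and of Il10 (CPM, linear axis) in every tumour, by clone on the horizontal axis. Points are tumours, red for RAFi/MEKi and blue for untreated, the horizontal line is the mean and the vertical line the SD of 3 tumours. Treated Il11 points sit below untreated ones in every clone except 14559R, and Il10 is above 12.9 CPM only in tumours of 14559R.

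The fall of Il11 was tested with edgeR's quasi-likelihood test, and the log2 fold change of treated over untreated tumours is given with its standard error. It was -4.33 ± 0.54 in 13TN (edgeR adjusted p = 2.58e-06). It was -3.34 ± 0.59 in 14559TN (edgeR adjusted p = 1.80e-04) and -2.75 ± 0.50 in 2646R (edgeR adjusted p = 4.84e-04). The value in 2646TN, -1.34 ± 0.61, did not pass the threshold (edgeR adjusted p = 0.278), but did so without the low-count filter (edgeR adjusted p = 1.51e-05) and in a fit of the 2 groups alone (edgeR adjusted p = 0.0203). Without the filter the 2646TN value was -1.35, nearly the same, so a larger change does not account for that call. In 14559R the value was 0.16 ± 0.41 (edgeR adjusted p = 0.937), and its sign turned when any of 3 libraries was left out. The response of 14559R minus that of 14559TN was 3.50 ± 0.73 (edgeR adjusted p = 0.00285). The response of 2646R minus that of 2646TN was -1.41 ± 0.81 and was not called (edgeR adjusted p = 0.381), but was without the filter (edgeR adjusted p = 0.0033) and in a fit of the 4 groups alone (edgeR adjusted p = 0.0214). Genes used as stromal markers moved in the same tumours. The sum of 6 pericyte and smooth muscle markers, mostly Acta2, averaged 763 ± 143 CPM treated and 105 ± 41.0 CPM untreated in 2646R, and 149.6 ± 38.4 CPM treated and 13.5 ± 3.16 CPM untreated in 14559TN. It averaged 47.5 ± 22.4 CPM treated and 9.89 ± 3.48 CPM untreated in 13TN, 412 ± 225 CPM treated and 24.1 ± 1.63 CPM untreated in 2646TN, and 33.8 ± 6.96 CPM treated and 31.5 ± 2.23 CPM untreated in 14559R (SD, n = 3 each). Of these 6 markers, Myh11, Kcnj8 and Abcc9 were at 0 in 20, 28 and 19 of the 30 libraries. Acta2, Rgs5 and Notch3 were detected in every library, Rgs5 at 0.227 to 17.2 CPM and Notch3 at 0.982 to 14 CPM. The mean fibroblast sum, mostly Col3a1 and Col1a1, was higher with the drug in all 5 clones. It was 5903 ± 709 CPM treated and 2180 ± 763 CPM untreated in 2646R, and 5033 ± 513 CPM treated and 1921 ± 227 CPM untreated in 13TN. Expression of these genes by stromal cells and by the sorted melanoma cells cannot be told apart. The part of stromal cells in the Il11 responses was not tested. In sorted bulk cells, fewer cells of a type and less RNA per cell cannot be told apart.

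Il11 was also higher in the R clone than in the TN clone of both pairs. Untreated 14559R tumours averaged 166 ± 109.5 CPM and untreated 14559TN tumours 41.1 ± 1.10 CPM (SD, n = 3 each), a log2 difference of 2.01 ± 0.45 (edgeR adjusted p = 0.00219). Beside it, 6 of the 14 dissociation genes were called higher and 0 lower in untreated 14559R than in untreated 14559TN. Of all genes, 24.1% were called there in either direction. With the mean level of the dissociation genes as a covariate the Il11 difference was 1.72 (edgeR adjusted p = 0.0509). The summed dissociation genes did not overlap, at 1878 to 2156 CPM in untreated 14559R and 800 to 953.6 CPM in untreated 14559TN. Dissociation and clone therefore cannot be told apart here. Without untreated 14559R replicate 1 the Il11 difference was 1.32 (edgeR adjusted p = 0.0281). Under RAFi/MEKi the means were 185 ± 107 CPM in 14559R and 3.93 ± 1.34 CPM in 14559TN, a log2 difference of 5.51 ± 0.58 (edgeR adjusted p = 1.08e-07). This call held in 12 of 12 alternatives. The fibroblast marker sums were also higher in 14559R tumours, as given above, and their part in the Il11 differences was not tested. Untreated 2646R tumours averaged 73.4 ± 10.0 CPM and untreated 2646TN tumours 14.4 ± 2.17 CPM, a log2 difference of 2.34 ± 0.49 (edgeR adjusted p = 7.28e-04). Under the drug, 2646R averaged 10.9 ± 1.34 CPM and 2646TN 5.69 ± 0.553 CPM, which was not called (0.94 ± 0.63, edgeR adjusted p = 0.317) but was without the filter (edgeR adjusted p = 0.00426). In the order of the 10 group means of Il11, treated 14559R, untreated 14559R, untreated 13TN and untreated 2646R came first, and neighbours among these 4 differed by less than the larger SD of each pair. Untreated 14559TN, untreated 2646TN and treated 2646R followed, each below its neighbour by more than that spread. Treated 13TN, treated 2646TN and treated 14559TN came last.

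Il10, on chromosome 1 (GRCm38, 131019845 to 131024974, plus strand), encodes an anti-inflammatory cytokine made mainly by immune cells. Here it was high in the tumours of 14559R. Treated 14559R tumours held 42.4, 12.9 and 24.3 CPM, and untreated ones 31.9, 14.3 and 31.0 CPM, from 53 to 187 counts each. The other 24 tumours held 0 to 7 counts, at most 1.91 CPM, and 15 of them had none, so the 14559R tumours did not overlap with any other. Untreated 14559R had 317 counts and untreated 14559TN 3, a ratio of 94.9 (95% Poisson interval of the lower count 32.5 to 460, counting error alone), and the difference was called (edgeR adjusted p = 9.86e-06). Under RAFi/MEKi 14559R had 336 counts and 14559TN none, an at least 106-fold higher level against a floor of 3 counts over the group (edgeR adjusted p = 5.68e-07). Both calls held in 12 of 12 alternatives. Within 14559R the log2 change of Il10 with the drug was 0.05 ± 0.54 (edgeR adjusted p = 0.995). Il10 is known from macrophages and lymphocytes. The summed macrophage markers were 23.8 to 57.4 CPM in 14559R tumours and 29.5 to 356 CPM in the others. The 10 lymphocyte markers summed to 0 to 0.925 CPM in 14559R tumours and 0 to 2.52 CPM in the others. Of those 10, Cd3g, Cd79a, Ms4a1 and Ncr1 were at 0 in all 30 libraries. The fibroblast markers summed to 6619 to 13690 CPM in 14559R tumours and 1453 to 7719 CPM in the others. Which cells held the Il10 RNA was not tested.

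The genes around Il10 were examined after its values were seen. A window of 200 kb on each side held 15 genes, of which 7, Il10 included, had at least 20 counts over all tumours. Il19 and Il24, cytokine genes of the IL-10 family in the same cluster, had 33 and 13 counts in all, and Il20 had none. Mapkapk2, which encodes a kinase downstream of p38, averaged 174 ± 11.9 CPM in treated 14559R and 83.3 ± 6.50 CPM in treated 14559TN, a log2 difference of 1.06 ± 0.13 (edgeR adjusted p = 4.08e-08). Its untreated levels were 203 ± 16.3 CPM in 14559R and 118 ± 13.0 CPM in 14559TN (0.78 ± 0.13, edgeR adjusted p = 2.38e-05). Dyrk3, a kinase gene, averaged 6.44 ± 1.26 CPM in treated 14559R and 0.0952 ± 0.165 CPM in treated 14559TN (edgeR adjusted p = 7.22e-08). Its untreated levels were 6.33 ± 1.14 CPM in 14559R and 2.86 ± 1.13 CPM in 14559TN, a smaller log2 difference of 1.14 ± 0.42 (edgeR adjusted p = 0.0483). Eif2d (edgeR adjusted p = 0.494 treated and 0.236 untreated) and Gm37084 (edgeR adjusted p = 0.0628 treated and 0.769 untreated) were not called. Rassf5 was lower in 14559R, with log2 differences of -0.99 ± 0.37 treated (edgeR adjusted p = 0.0251) and -1.35 ± 0.40 untreated (edgeR adjusted p = 0.0123).

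The ligands Il6 and Lif were at or near the limit of these libraries. Il6, on chromosome 5, had no count in 21 of 30 tumours, and 17 of its 41 counts came from a single treated 13TN tumour, at 4.28 CPM. The other 2 treated 13TN tumours had 0 and 4 counts, and the untreated 13TN tumours none. Lif, on chromosome 11, had at most 9 counts in a tumour. Its highest group mean was 1.54 ± 0.646 CPM in treated 14559R, against 0.235 ± 0.214 CPM in treated 14559TN (SD, n = 3 each). These were 19 and 3 counts, a ratio of 6.00 (95% Poisson interval of the lower count 2.05 to 29.1), and the 2 groups did not overlap. Neither gene was tested in the model with the low-count filter.

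Il6st, the gp130 chain on chromosome 13, was at separate levels in 2646R and 2646TN and in the other clones. All 12 tumours of 2646R and 2646TN lay between 174.8 and 216 CPM, and all 18 tumours of the other 3 clones between 240.3 and 366 CPM. Treated over untreated log2 changes were between -0.05 and 0.28 in the 5 clones and none was called, the smallest edgeR adjusted p being 0.411 in 14559R. Untreated 14559R tumours measured 240.3, 248 and 261 CPM and untreated 14559TN tumours 326, 329 and 325 CPM, without overlap. The log2 difference was -0.39 ± 0.13 (edgeR adjusted p = 0.0245), a call kept in 5 of 12 alternatives, with adjusted p up to 0.0877 without untreated 14559R replicate 1.

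Osmr, the oncostatin M receptor chain on chromosome 15, was higher with RAFi/MEKi in 2646R. Treated 2646R tumours held 17.4, 19.9 and 29.6 CPM and untreated ones 7.27, 6.39 and 13.1 CPM, without overlap. The log2 change was 1.33 ± 0.41 (edgeR adjusted p = 0.021). The call was lost without treated 2646R replicate 3 (edgeR adjusted p = 0.0979), untreated replicate 1 (edgeR adjusted p = 0.0887) or untreated replicate 2 (edgeR adjusted p = 0.0704). Treated 2646TN held 15.0, 8.12 and 4.54 CPM and untreated 2646TN 11.6, 10.3 and 5.84 CPM, which overlapped. The difference between treated 2646R and treated 2646TN was 1.28 ± 0.41 (edgeR adjusted p = 0.0291), called in 8 of 12 alternatives. It was lost without treated 2646TN replicate 2 (0.084) or 3 (0.161), without treated 2646R replicate 3 (0.128) and with the dissociation covariate (edgeR adjusted p = 0.155). In 14559TN, Osmr measured 32.9, 51.4 and 38.0 CPM treated, against 26.1, 21.5 and 20.7 CPM untreated, without overlap. That change of 0.84 ± 0.37 was not called (edgeR adjusted p = 0.0937), but was without the filter (edgeR adjusted p = 0.00678) and in a fit of the 2 groups alone (edgeR adjusted p = 0.00214). Neither 14559R nor 13TN passed the threshold, with log2 changes of 0.25 ± 0.38 and 0.64 ± 0.38.

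Lifr, the LIF receptor chain on chromosome 15, had 201 counts in all, so that a few reads decide its ratios. Treated 14559R tumours held 0, 1 and 0 counts and treated 14559TN tumours 7, 9 and 8. Lifr was thus lower in treated 14559R than in treated 14559TN by a ratio of 25.3 (95% Poisson interval of the lower count 4.55 to 1000; edgeR adjusted p = 0.00141), a call kept in 11 of 11 alternatives. Untreated 14559R tumours held 1, 4 and 3 counts and untreated 14559TN tumours 12, 10 and 7, also without overlap, and the difference was not called (edgeR adjusted p = 0.0554), although it was by DESeq2 (adjusted p = 0.0432). Within 14559R the treated tumours had 1 count in all and the untreated ones 8, a tumour of each group had 1 count, and the change was not called (edgeR adjusted p = 0.447). Between 2646R and 2646TN, 2646R was the higher one. Treated 2646R held 3.26, 2.11 and 3.29 CPM and treated 2646TN 0, 0 and 1.01 CPM, a log2 difference of 2.86 ± 0.84 (edgeR adjusted p = 0.0142). That call was lost without treated 2646TN replicate 1 (edgeR adjusted p = 0.0651) or replicate 2 (edgeR adjusted p = 0.0575). The untreated difference of 2.08 ± 0.79 (edgeR adjusted p = 0.0389) rested on untreated 2646R replicate 1, with 24 counts against 4 and 3 in the other 2 tumours. Without that tumour it was 0.76 (edgeR adjusted p = 0.572), and the call was kept in 5 of 11 alternatives.

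**Figure D2:**
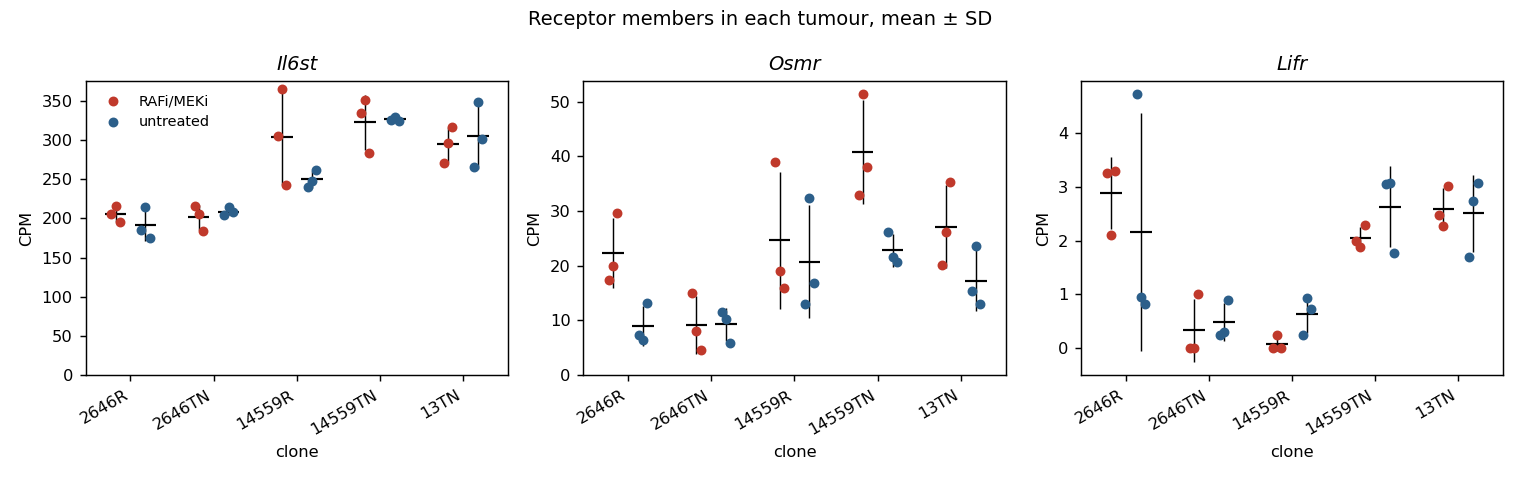
Level (CPM, linear axis) of the receptor genes Il6st, Osmr and Lifr in every tumour, by clone on the horizontal axis. Points are tumours, red for RAFi/MEKi and blue for untreated, with the mean and SD of 3 tumours. Il6st is lowest in 2646R and 2646TN, at 174.8 to 216 CPM. Lifr is at most 0.925 CPM in tumours of 14559R and at most 1.01 CPM in tumours of 2646TN.

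Stat3, on chromosome 11, was measured at 218 to 703 CPM, and no drug response of it was called in any of the 5 clones. Untreated 2646R tumours held 218, 284 and 280.0 CPM and untreated 2646TN tumours 453, 529.6 and 328 CPM, with every 2646R tumour below every 2646TN tumour. The log2 difference was -0.74 ± 0.18 (edgeR adjusted p = 0.00188), a call kept in 12 of 12 alternatives. Treated 2646R tumours held 389, 327 and 380.3 CPM, above all 3 untreated ones. That change of 0.49 ± 0.18 missed the threshold (edgeR adjusted p = 0.0552) and passed it in 7 of 12 alternatives, DESeq2 among them (adjusted p = 0.0351). Stat3 overlaps Stat5a on the other strand, and the counting used strand. In the remaining clones the log2 change with the drug lay between -0.20 and 0.14.

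Socs3, on chromosome 11, differed over the 10 groups (edgeR adjusted p = 0.00561) but was called in no comparison of clones or treatments in the fit of all 10 groups with the filter and no covariate. Treated 2646TN tumours held 58.2, 54.5 and 17.4 CPM and untreated ones 95.7, 65.1 and 84.5 CPM, without overlap. The log2 change was -0.93 ± 0.45 (edgeR adjusted p = 0.309), and without the low-count filter it was called (edgeR adjusted p = 1.08e-05) at nearly the same value of -0.9345. Beside it, 4 of the 14 dissociation genes were lower and 0 higher in treated 2646TN, where 3.94% of all genes were called in either direction. With the mean level of the dissociation genes as a covariate the Socs3 change was -0.06 (edgeR adjusted p = 0.992). The dissociation sums did not overlap, at 723 to 1039 CPM treated and 1458 to 2366 CPM untreated. Dissociation and drug therefore cannot be told apart here. The list includes AP-1 genes and can itself be part of the drug response, so the covariate may remove a drug effect. Which of these applied was not tested. In 14559R, treated tumours held 188, 154 and 106 CPM and untreated ones 94.0, 141 and 93.3 CPM. In 14559TN they held 32.4, 173 and 116 CPM treated and 143, 145 and 218 CPM untreated, and the treated tumours were widely spread. The response of 14559R minus that of 14559TN was 1.10 ± 0.59 (edgeR adjusted p = 0.261), called without the filter (edgeR adjusted p = 1.52e-04). In 13TN, treated tumours held 84.8, 114 and 122 CPM and untreated ones 128, 184 and 140.0 CPM, without overlap, and the change of -0.49 ± 0.42 was not called (edgeR adjusted p = 0.402). It was called in 3 of 12 alternatives, namely without the filter (edgeR adjusted p = 0.0392), in a fit of the 2 groups alone (edgeR adjusted p = 0.0371) and with the dissociation covariate (-0.98, edgeR adjusted p = 0.0496). Untreated 14559R against untreated 14559TN gave -0.63 ± 0.42 (edgeR adjusted p = 0.304), and was called without the filter (edgeR adjusted p = 0.00211) and with the dissociation covariate (-1.34, edgeR adjusted p = 0.0281). As given for Il11, the dissociation sums of these groups did not overlap, so dissociation and clone cannot be told apart.

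**Figure D3:**
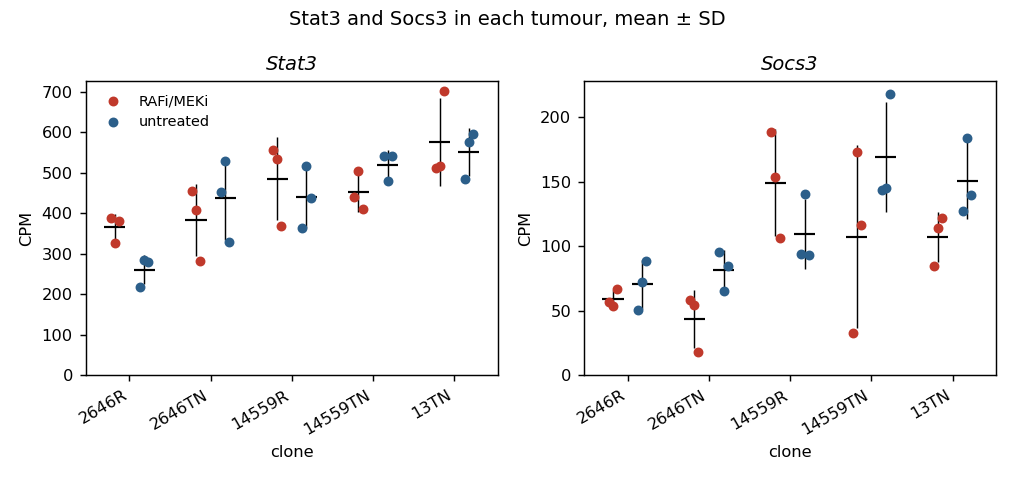
Level (CPM, linear axis) of Stat3 and Socs3 in every tumour, by clone on the horizontal axis. Points are tumours, red for RAFi/MEKi and blue for untreated, with the mean and SD of 3 tumours. Untreated 2646R has the lowest Stat3 mean, 261 CPM, and treated 14559TN tumours are widely spread for Socs3, at 32.4 to 173 CPM.

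Over the 7 tested members, all 7 differed among the 10 groups, where 78.8% of all tested genes did. In the drug responses, 2 of 7 were called in 2646R (Il11 lower, Osmr higher; 19.9% of all genes), 1 in 14559TN (Il11; 28.4%) and 1 in 13TN (Il11; 31.0%). By edgeR 0 of 7 were called in 2646TN, where 3.94% of all genes were, with 2 at an unadjusted p under 0.05 and 0 called by DESeq2. By edgeR 0 of 7 were called in 14559R as well, where 0.196% of all genes were, with 2 at an unadjusted p under 0.05 and 0 called by DESeq2. Between clones, 3 of 7 were called in untreated 2646R against 2646TN (36.6% of all genes) and 2 of 7 in the treated pair (20.1%). In 14559R against 14559TN, 3 of 7 were called untreated (24.1%) and 3 of 7 treated (49.4%). Of the 2 response differences, that of 14559R minus 14559TN called 1 of 7 (12.0%). That of 2646R minus 2646TN called 0 by edgeR (4.15%), with 2 at an unadjusted p under 0.05 and 0 by DESeq2. These shares are small counts set beside the whole data set, and none is a test of the list. The comparisons within a clone pair share tumours.

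Of the other receptors, 4 of 10 listed genes were tested. Il11ra1, the receptor of IL-11, was higher with RAFi/MEKi in the clones where Il11 was called lower. In 2646R it averaged 307 ± 33.5 CPM treated and 43.6 ± 17.8 CPM untreated, a log2 change of 2.83 ± 0.32 (edgeR adjusted p = 1.50e-06). The change was 1.56 ± 0.30 in 14559TN (edgeR adjusted p = 3.53e-04) and 1.55 ± 0.30 in 13TN (edgeR adjusted p = 3.91e-04). In 14559R it was 0.17 ± 0.30 and in 2646TN 0.19 ± 0.28, neither called. The level itself set 2646TN apart, at 1314 ± 338 CPM treated and 1155 ± 133 CPM untreated. The gene span of Il11ra1 overlaps 6 others, Galt among them on the same strand, and the near-identical copy Il11ra2 was listed at 0 in all libraries, so the level assigned to Il11ra1 is uncertain. Il6ra, the IL-6 receptor, was lower in untreated 14559R than in untreated 14559TN (-1.22 ± 0.20, edgeR adjusted p = 2.28e-05). Il10rb, a chain of the IL-10 receptor, was higher with the drug in 13TN, at 25.3 ± 2.68 CPM treated and 12.3 ± 2.38 CPM untreated (1.04 ± 0.28, edgeR adjusted p = 0.00396). Il20rb, a receptor chain of the IL-10 family, fell with the drug in 14559TN, at 0.753 ± 0.158 CPM treated and 4.20 ± 1.26 CPM untreated (-2.42 ± 0.70, edgeR adjusted p = 0.00875).

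Of 13 other ligands of the IL-6 and IL-10 families, 3 were tested. Clcf1, a ligand of the ciliary neurotrophic factor receptor, fell with the drug in 2646R, at 26.8 ± 7.99 CPM treated and 73.7 ± 15.4 CPM untreated (-1.46 ± 0.31, edgeR adjusted p = 0.00125). Ctf1, encoding cardiotrophin-1, was called in no comparison.

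Among 10 JAK and STAT genes, 9 were tested, and in 14559TN 3 rose and 2 fell with the drug, where 28.4% of all genes were called. Stat2, a factor of interferon signalling, was among those higher. It averaged 168 ± 7.55 CPM in treated 14559TN and 33.0 ± 4.93 CPM in untreated 14559TN (2.34 ± 0.24, edgeR adjusted p = 2.80e-08). In 14559R its means were 33.3 ± 13.8 CPM treated and 19.7 ± 1.48 CPM untreated, and the response of 14559R minus that of 14559TN was -1.58 ± 0.35 (edgeR adjusted p = 0.00322). In untreated 2646R 7 of the 9 were lower than in untreated 2646TN and 0 higher, where 18.4% of all genes were called lower. Stat2 differed by -2.34 ± 0.26 there and Jak3 by -1.58 ± 0.28. Jak3, the kinase of the common gamma chain, was lower with the drug in 14559TN (-1.39 ± 0.28, edgeR adjusted p = 2.52e-04). Jak1, the kinase that binds gp130, was lower in untreated 2646R than in untreated 2646TN (-0.50 ± 0.12, edgeR adjusted p = 0.00156). With the macrophage marker covariate that difference was -0.30 and not called (edgeR adjusted p = 0.282). The summed macrophage markers were 38.6 to 82.5 CPM in untreated 2646R and 217 to 356 CPM in untreated 2646TN. These ranges did not overlap, so macrophage content and clone cannot be told apart here.

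All 15 listed inhibitors and adaptors were tested. In treated 14559R 1 was higher and 3 were lower than in treated 14559TN, where 49.4% of all genes were called in either direction. Socs5, a relative of Socs3, averaged 71.3 ± 12.9 CPM in treated 14559R and 30.5 ± 7.01 CPM in treated 14559TN (1.22 ± 0.18, edgeR adjusted p = 9.09e-07). Pias1 and Pias3, which encode SUMO ligases that restrain STAT factors, were lower there, with log2 differences of -0.97 ± 0.19 and -0.51 ± 0.13. Ptpn1, a phosphatase of JAK kinases, changed with the drug by -0.40 ± 0.12 in 14559TN (edgeR adjusted p = 0.0133), a call kept in 7 of 12 alternatives, with adjusted p up to 0.0874 without the filter.

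Genes known as targets of STAT3 were read from a list of 20, of which 17 were tested. In treated 14559R 11 of 17 were higher and 0 lower than in treated 14559TN, with a median log2 difference of 1.11 beside 0.02 for all genes, 26.6% of which were called higher. Untreated, 3 were higher and 1 lower, where 24.1% of all genes were called in either direction. The response of 14559R minus that of 14559TN was called higher in 6 of 17 and lower in 0, where 7.93% of all genes were called higher. With the drug, 5 of 17 fell and 1 rose in 14559TN, where 28.4% of all genes were called. In 2646R 4 fell and 1 rose (19.9% of all genes), and in 13TN 2 fell and 1 rose (31.0%). None was called in 14559R (0.196%) or 2646TN (3.94%). Timp1, a metalloproteinase inhibitor, averaged 683 ± 177 CPM in treated 14559R and 103 ± 18.5 CPM in treated 14559TN (2.72 ± 0.20, edgeR adjusted p = 1.57e-11). Cebpb and Cebpd, transcription factors of the acute phase response, differed there by 1.41 ± 0.24 and 1.11 ± 0.32. Nfkbiz, an atypical inhibitor of NF-kappaB, differed by 1.15 ± 0.23 (edgeR adjusted p = 1.20e-04). The calls of Timp1, Cebpb and Nfkbiz were kept in 12 of 12 alternatives, the dissociation covariate among them, while Cebpd was 0.60 with that covariate (edgeR adjusted p = 0.2) and was called in 11 of 12. The dissociation sums did not overlap, at 1765 to 2704 CPM in treated 14559R and 628 to 1713 CPM in treated 14559TN. That covariate therefore cannot separate dissociation from clone. The STAT3 target genes also answer to other signals, including MEK and ERK. Beside them 6 of the 14 dissociation genes were higher and 0 lower in treated 14559R, where 26.6% of all genes were called higher. Among them were Ier3 (3.81 ± 0.59) and Ier2 (1.73 ± 0.34). Junb is on both lists, so the lists are not fully separate. Jun, also of that list, differed by 0.67 ± 0.20, called in 10 of 12 alternatives, and Hspa1a was lower with the drug in 2646TN (-2.08 ± 0.44, edgeR adjusted p = 0.00873). The Hspa1a call was kept in 9 of 12 alternatives and lost with the macrophage covariate (edgeR adjusted p = 0.151), with the dissociation covariate (-0.78, edgeR adjusted p = 0.209) and without treated 2646TN replicate 2 (edgeR adjusted p = 0.0509). The dissociation covariate is a mean that includes Hspa1a, Jun, Ier2 and Ier3 themselves, so for these genes that setting cannot decide. The part of dissociation in the difference of the STAT3 target list was not tested.

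**Figure D4:**
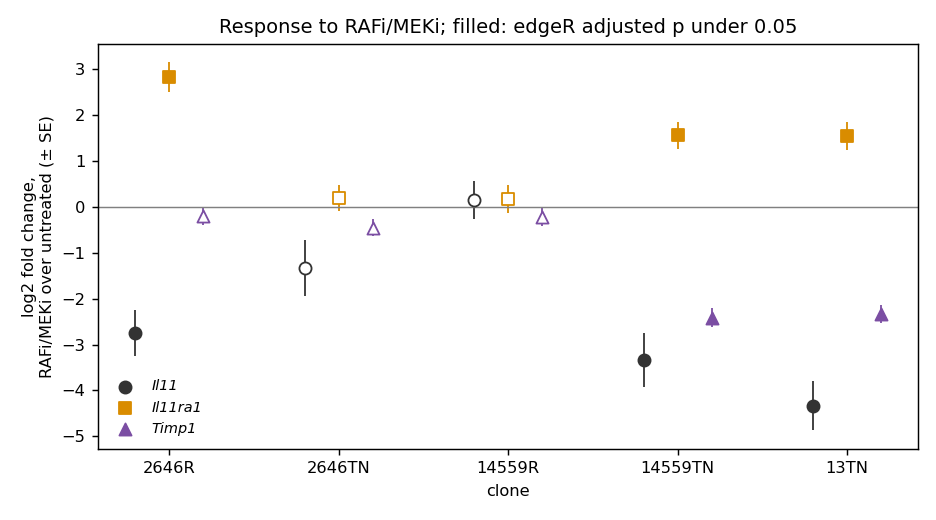
Log2 fold change of RAFi/MEKi over untreated tumours (vertical axis, ± SE) for Il11, Il11ra1 and Timp1 in each clone (horizontal axis). Filled symbols passed an edgeR adjusted p of 0.05. Il11 is lower in 2646R, 14559TN and 13TN, where Il11ra1 is higher, and all 3 genes lie between -0.22 and 0.17 in 14559R.

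Across the 10 group means of log2 CPM, Il6st had a Pearson r of 0.82 with Stat3, 0.81 with Socs3 and 0.79 with Osmr. Stat3 and Socs3 had a lower Pearson r of 0.68 with each other. Il11 had a Pearson r of 0.745 and a Spearman rho of 0.93 with Il10, and a Pearson r of -0.01 with Stat3. The 10 means share clones and are not independent, so these values are a description. Il10 had 53 to 187 counts in each tumour of 14559R and 0 to 7 counts in each tumour of the other clones. Its ranks among the groups outside 14559R therefore rest on a few counts. A Pearson r with Il10 cannot tell joint variation from a difference of 14559R to the other clones. The 3 tested genes with the highest Pearson r to each member were taken, with r in brackets. For Il11 they were Slc30a4 (0.99), Gla (0.98) and Gas2l1 (0.97). For Il10 they were Krt20 (0.99), Hapln1 (0.99) and Nppc (0.98), with the limit given above for r with Il10. For Il6st they were Pde1a (0.99), Gda (0.96) and Ntn1 (0.96). For Osmr they were Nsmaf (0.96), Fam151b (0.93) and Ddx5 (0.93). For Lifr they were 2610306M01Rik (0.93), Gm6612 (0.90) and Gm16540 (0.90). For Stat3 they were Gm44745 (0.95), Dag1 (0.95) and Trp53i13 (0.94). For Socs3 they were Ace (0.95), Tmed4 (0.94) and Snap25 (0.93). With Spearman's rho or with r over the 30 libraries, at most 2 of the 3 nearest genes of a member stayed among its 3 nearest.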

How the data were processed

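Raw counts per gene of 30 libraries were deposited by the authors. Libraries were made with the QuantSeq 3′ kit, and reads were aligned with STAR 2.6.0c to GRCm38, per the labels and the submitters' processing notes. Reads were counted per gene with featureCounts 1.6.2 with strand, per the file headers. A QuantSeq count does not scale with transcript length, and levels of different genes were not compared. Totals of 3022801 to 5278453 counts limit the precision of genes with few counts, and intervals cover counting error alone.

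Counts were filtered with filterByExpr by group, scaled with TMM factors and fitted in 1 model of 10 groups with edgeR 4.0.16 (R 4.3.3) by its quasi-likelihood test, with 20 residual degrees of freedom. P-values were adjusted by the Benjamini-Hochberg method over 13286 genes and called at 0.05, for 12 comparisons. The standard error of a log2 fold change was its size divided by the root of F. The procedure was tested on simulated data. DESeq2 1.42.0, other size factors, no filter, 2 covariates, fits of the compared groups alone and leaving out each library were the alternatives. Where the fit without the filter called a tested member that the main fit did not, its log2 value hardly differed from the main fit. A larger change does not account for such calls, and what else in that fit produced them was not tested. Nothing in the labels names a separate animal for each tumour, so the spread between samples of a group may be partly technical.

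The members, the pathway lists and the tests were chosen with earlier results of these data known. Named were every member, the 4 genes of each pathway list with the smallest p over the 10 groups, and the 3 genes most like each member by Pearson r of log2 CPM (prior count 2). Timp1, the genes around Il10 and the check of Il11ra2 were chosen after values were seen. Some genes that the rule names are not reported here.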

Additional observations from a re-analysis of the deposited data

Results flagged for a closer look

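These genes answered the drug differently in the R and the TN clone of a pair, by the edgeR test of the difference between the 2 responses, adjusted over all tested genes. Each value is a log2 difference, the response of the R clone minus that of the TN clone.

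For 14559R and 14559TN, 12.0% of all tested genes were called in this difference. In the drug response alone 0.196% of all genes were called in 14559R and 28.4% in 14559TN. The genes outside the members were picked by their small p over the same 10 groups. The values were as follows. Il11 differed by 3.50 (edgeR adjusted p = 0.00285), called in 18 of 18 alternatives, with a response of 0.16 in 14559R and -3.34 in 14559TN. Il11ra1 differed by -1.39 (edgeR adjusted p = 0.0309), called in 9 of 18 alternatives, with a response of 0.17 in 14559R and 1.56 in 14559TN. Il6ra differed by 1.02 (edgeR adjusted p = 0.0115), called in 17 of 18 alternatives, with a response of 0.88 in 14559R and -0.13 in 14559TN. Stat2 differed by -1.58 (edgeR adjusted p = 0.00322), called in 18 of 18 alternatives, with a response of 0.76 in 14559R and 2.34 in 14559TN. Jak3 differed by 1.67 (edgeR adjusted p = 0.00344), called in 18 of 18 alternatives, with a response of 0.28 in 14559R and -1.39 in 14559TN. Pias1 differed by -0.84 (edgeR adjusted p = 0.0416), called in 9 of 18 alternatives, with a response of 0.03 in 14559R and 0.87 in 14559TN. Socs5 differed by 0.92 (edgeR adjusted p = 0.0101), called in 16 of 18 alternatives, with a response of -0.06 in 14559R and -0.98 in 14559TN. Timp1 differed by 2.19 (edgeR adjusted p = 2.30e-06), called in 18 of 18 alternatives, with a response of -0.22 in 14559R and -2.41 in 14559TN. Nfkbiz differed by 1.09 (edgeR adjusted p = 0.023), called in 12 of 18 alternatives, with a response of 0.81 in 14559R and -0.28 in 14559TN. Cebpd differed by 1.47 (edgeR adjusted p = 0.0354), called in 6 of 18 alternatives, with a response of 0.76 in 14559R and -0.71 in 14559TN. Cebpb differed by 1.37 (edgeR adjusted p = 0.00559), called in 18 of 18 alternatives, with a response of 0.49 in 14559R and -0.88 in 14559TN.

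For 2646R and 2646TN, 4.15% of all tested genes were called in this difference, and the values were as follows. Il11ra1 differed by 2.64 (edgeR adjusted p = 8.41e-04), called in 17 of 18 alternatives, with a response of 2.83 in 2646R and 0.19 in 2646TN. Hspa1a differed by 2.50 (edgeR adjusted p = 0.0225), called in 12 of 18 alternatives, with a response of 0.42 in 2646R and -2.08 in 2646TN. The dissociation covariate among these alternatives includes Hspa1a itself and cannot decide for it.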

How the results depend on the processing

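No paired analysis was possible because the replicate numbers were given in accession order and the labels pair no tumours. Of the 12 counts of called members, those of the 5 drug responses, the clone comparisons and the response differences moved by over 1.5 times as follows, and the cause was not tested. Without the low-count filter the count was 2 in the 2646TN response, 3 in the 14559TN response, 3 in the 13TN response, 5 in treated 14559R against 14559TN, 3 in the response difference of 2646R minus 2646TN and 2 in the response difference of 14559R minus 14559TN. Those counts are out of all 9 members, Il6 and Lif included, and not out of 7. In 13TN Il6 or Lif was among the 3, and 17 of the 21 Il6 counts in treated 13TN came from 1 tumour. With the dissociation covariate it was 2 in the 13TN response and 1 in treated 2646R against 2646TN. In fits of the compared groups alone it was 1 in the 2646TN response, 2 in the 14559TN response, 2 in the 13TN response, 1 in treated 2646R against 2646TN and 1 in the response difference of 2646R minus 2646TN. Leaving out each library gave 1 to 3 in the 2646R response (13.1 to 19.3% of all genes called) and 0 to 2 in treated 2646R against 2646TN (13.1 to 18.1%). For the other settings the share of all genes called is not given here, so those counts cannot be read against it. The sign turned in 12 values of members that were not called: Il6st in the 14559TN response was 0.0247 with median-of-ratios factors and 0.0251 in DESeq2, and Il10 in the response difference of 2646R minus 2646TN was -2.60 with the macrophage covariate and -0.0042 in DESeq2. With the dissociation covariate Osmr was 0.55 in the 2646TN response and 0.11 in untreated 2646R against 2646TN, Il10 was -0.0127 in the 14559R response, and Socs3 was 0.0571 in untreated and -0.0782 in treated 2646R against 2646TN, -0.10 in treated 14559R against 14559TN and -0.14 in the response difference of 2646R minus 2646TN. Osmr in the 2646TN response was 0.0035 in the fit of the compared groups alone. Leaving out a library also turned signs of uncalled values, with these log2 ranges: Il10 0 to 3.09 (2646R against 2646TN, treated), Il10 -0.49 to 0.37 (response in 14559R), Il10 -3.83 to 0 (response in 14559TN), Il10 -4.10 to 0 (response in 2646TN), Il10 -2.24 to 2.27 (response difference, 2646R minus 2646TN), Il11 -0.31 to 0.84 (response in 14559R), Il6st -0.26 to 0.0547 (14559R against 14559TN, treated), Il6st -0.0131 to 0.11 (2646R against 2646TN, treated), Il6st -0.10 to 0.0891 (response in 13TN), Il6st -0.0780 to 0.0981 (response in 14559TN), Il6st -0.12 to 0.0243 (response in 2646TN), Lifr -0.12 to 0.24 (response in 13TN), Lifr -4.11 to 0.40 (response in 2646TN), Osmr -0.61 to 0.11 (14559R against 14559TN, untreated), Osmr -0.43 to 0.14 (2646R against 2646TN, untreated), Osmr -0.27 to 0.72 (response in 14559R), Osmr -0.57 to 0.36 (response in 2646TN), Stat3 -0.0534 to 0.27 (14559R against 14559TN, treated), Stat3 -0.22 to 0.11 (2646R against 2646TN, treated), Stat3 -0.0797 to 0.18 (response in 13TN), Stat3 -0.35 to 0.0024 (response in 2646TN). Of 180 group levels under 2 other scalings, 179 moved by less than 1 SD. Depth limits Il6, Lif, Lifr and Il10 outside 14559R, where a few counts decide a ratio.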
